A study of Mus musculus with 4 samples.

Results

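Noncoding RNAs do their work without being translated, and 6 of them were read here in RNA that had been precipitated with protein from mouse gut. The members were chosen by name: a probe set belonged when its gene symbol was Malat1, Neat1, Gas5, Meg3, Rny1, Rny3 or Rmrp. The names were chosen with earlier results of these data known. Of these 7 genes, 6 were represented, by 9 of the 21640 probe sets that carry 1 gene symbol, and each probe set was kept apart. Gas5 had 4 probe sets, numbered here 1 to 4, and the other genes had 1 each. No probe set carried the symbol Neat1 alone or with another, so Neat1 was not analysed here.

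Malat1 and Neat1 are long nuclear RNAs of neighbouring genes on chromosome 19; Malat1 gathers in nuclear speckles with splicing factors, and Neat1 is the scaffold of paraspeckles. Gas5 is the host of small nucleolar RNAs, which are cut out of its introns, while its spliced RNA is a short-lived cytoplasmic transcript whose start has the pyrimidine tract of genes controlled with growth. Meg3 is an imprinted RNA of the Dlk1 and Dio3 locus. Rny1 and Rny3 encode Y RNAs, small RNAs bound by the Ro60 and La proteins, and Rmrp encodes the RNA of the RNase MRP enzyme, which processes ribosomal RNA. Musashi1 (Msi1) is an RNA-binding protein of progenitor cells whose core binding motif in RNA is UAG.

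The study crosslinked RNA to protein in adult C57BL/6 mouse gut with ultraviolet light, precipitated Msi1 and read the RNA on Affymetrix Mouse Gene 1.0 ST arrays, in order to rank transcripts by their enrichment over IgG. The 4 groups were RNA with no antibody step (input), RNA precipitated with nonspecific IgG, RNA precipitated with an antibody to Msi1 and RNA precipitated with an antibody to an hnRNP, a class of nuclear RNA-binding proteins. The sources used here do not say which of these proteins that antibody binds. Every group was wild-type intestinal epithelium with RNA of 2 experiments combined, 100 ng of it labelled, and had 1 array. With 1 array a group there is no spread between replicates, no difference was tested, and precision is limited by how few arrays there are. Since the same mass of RNA was labelled for each array, a value is a share of that array's RNA and not an amount recovered.

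Values are log2 signals, and levels are compared only within a probe set. Each array has a detection floor, the level that 95% of 1208 olfactory and vomeronasal receptor probe sets stay under: 4.09 on input, 5.26 on IgG, 4.74 on Msi1 and 5.17 on hnRNP. Of the probe sets with 1 symbol, 59.0% were above the floor on input, 27.5% on IgG, 47.4% on Msi1 and 32.3% on hnRNP. All 14 epithelial markers sought, such as villin and Epcam, were above the floor on input, as were 3 of 5 immune, 3 of 7 stromal and muscle, 1 of 4 neural and glial and 0 of 1 red blood cell markers found. Input signals ran from 6.71 to 13.9 over the epithelial markers, 2.90 to 6.36 over the immune, 2.87 to 4.80 over the stromal and muscle and 2.16 to 4.43 over the neural and glial ones, which are readings of different probe sets and are not set against each other. The part of these other cells in the members' signals was not tested. Between the Msi1 and IgG arrays the middle 95% of the receptor probe sets, which are background, differed by −1.57 to 0.74, and between hnRNP and IgG by −1.41 to 1.27.

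The first 50 bases downstream of annotated starts of Malat1, Gas5 and Meg3 are shown because these RNAs, and not their promoters, were precipitated, and Malat1 and Gas5 carry the differences described next while Meg3 does not. They are the genomic strand that matches the RNA, from RefSeq (GRCm38.p6), and can include intron. Capitals mark the Musashi core TAG (UAG in RNA) and, where it is there, the longer GTAG that contains it.

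Malat1, chr19:5802623-5802672, minus strand: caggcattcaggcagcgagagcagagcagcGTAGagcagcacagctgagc
Gas5, upstream start, chr1:161034601-161034650, plus strand: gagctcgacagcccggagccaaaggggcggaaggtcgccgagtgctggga
Gas5, downstream start, chr1:161035166-161035215, plus strand: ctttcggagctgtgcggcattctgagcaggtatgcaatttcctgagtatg
Meg3, upstream start, chr12:109540996-109541045, plus strand: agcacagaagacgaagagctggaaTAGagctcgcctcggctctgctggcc

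Malat1 held 1 GTAG, at base 31 from its start, and Meg3 held 1 TAG, at base 25 of its upstream start. A second annotated Meg3 start, chr12:109545398-109545447, held 0 TAG on the RNA strand and 2 GTAG on the other strand. Neither Gas5 start held the motif on either strand in these letters. Of 32851 annotated starts, 33.7% held TAG and 11.1% held GTAG in the same 50 bases of the RNA strand, and 49.0% and 19.7% on either strand. The 2 Gas5 starts lay 565 bases apart, and the downstream one opens with the pyrimidines CTTTC. These stretches are a small part of each RNA, and a match is a description and not a binding site.

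Malat1 read 9.43 on input, 5.99 on IgG, 9.82 on Msi1 and 7.60 on hnRNP. The order from high to low was Msi1, input, hnRNP and IgG, and all 4 values were above their floors, the IgG value by 0.72. Malat1 was thus 14.2-fold higher in Msi1 than in IgG, a log2 difference of 3.83 that ranked 138th of 11164 probe sets compared. It was 3.06-fold higher in hnRNP than in IgG, which ranked 78th of 8430, and 4.64-fold higher in Msi1 than in hnRNP. Against input, Msi1 differed by 0.38, under 2-fold. Another probe set, which carries the symbols Malat1 and Ramp2 together, did not follow these differences. It differed from IgG by 0.03 in Msi1 and −3.67 in hnRNP, and is described under the results flagged for a closer look.

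Gas5 probe set 1, whose annotation lists 4 transcript accessions, read 7.03 on input, 3.82 on IgG, 9.20 on Msi1 and 5.57 on hnRNP. Its deposited values differed between Msi1 and IgG by 5.38, ranked 14th of the 11164 compared, but the IgG value lay 1.44 below the floor and is background. Raised to the floor the difference was 3.94, so the fold is given as at least 15.3. In hnRNP it stood 0.41 above the floor, which makes the excess over IgG at least 1.24-fold, while the deposited values differed by 1.75. Msi1 exceeded hnRNP 12.4-fold and input 4.51-fold on this probe set, which was the 97th highest difference from input among 13834.

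The other Gas5 probe sets, annotated with a single accession each, did not follow the first. Probe set 2 read 5.27 on input, 3.32 on IgG, 3.19 on Msi1 and 2.95 on hnRNP, and probe set 3 read 7.47, 3.18, 4.43 and 4.24 on the same arrays. Both were above the floor on input alone. Probe set 4, at 2.62, 3.33, 2.74 and 3.30, was below the floor on every array. Relative to input, the Msi1 signal was lower by at least 6.64-fold for probe set 3 and at least 1.45-fold for probe set 2, where probe set 1 was 4.51-fold higher. One gene therefore gave opposite differences on different probe sets, and the sources used here do not say which stretch of Gas5 each reads. Of 10 small nucleolar RNAs of Gas5 sought among the probe sets with 1 symbol, 1 was found, Snord47. It read 7.25 on input and 3.91, 3.19 and 3.05 on IgG, Msi1 and hnRNP, all 3 below their floors.

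**Figure D1:**
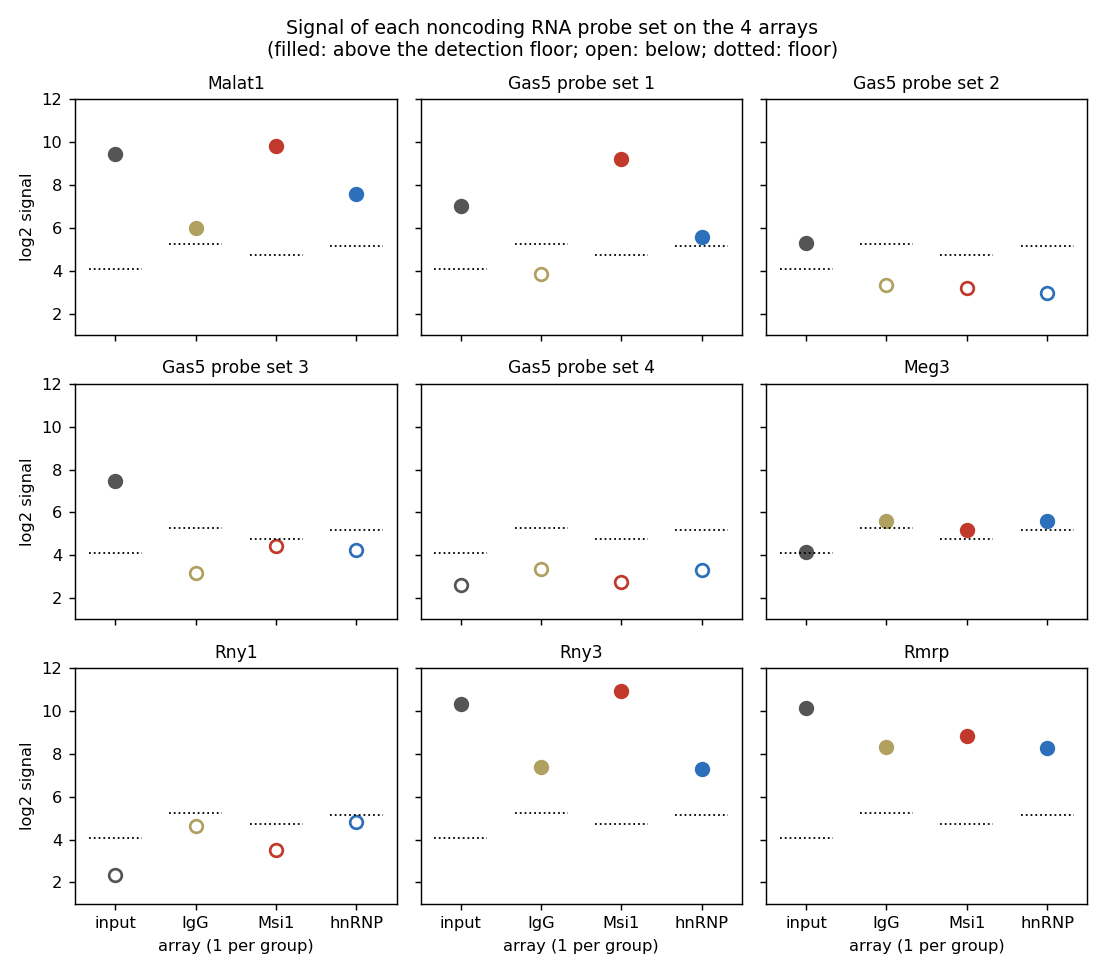
Log2 signal (y axis) of the 9 probe sets on the input, IgG, Msi1 and hnRNP arrays (x axis, 1 array per group), filled above and open below that array's detection floor (dotted). Malat1, Gas5 probe set 1 and Rny3 are highest on Msi1, at 9.82, 9.20 and 10.92, Rmrp is highest on input, and Gas5 probe set 4 and Rny1 are below the floor on all 4 arrays.

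The 2 Y RNAs could not be compared, since Rny3 alone was above the floor. Rny3 read 10.32 on input, 7.38 on IgG, 10.92 on Msi1 and 7.31 on hnRNP, at least 2.11 above the floor on every array. It was 11.7-fold higher in Msi1 than in IgG (3.54, 194th of 11164) and 12.3-fold higher in Msi1 than in hnRNP (3.62). The hnRNP and IgG values lay within 0.07 of each other for Rny3, where Malat1 was 1.61 higher in hnRNP; whether the 2 RNAs differ in this was not tested. Rny1, separated from Rny3 by 1 annotated pseudogene on chromosome 6, read 2.34 on input, 4.62 on IgG, 3.49 on Msi1 and 4.81 on hnRNP. All 4 values were below their floors, and no difference is drawn from them.

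Rmrp read 10.15 on input, 8.33 on IgG, 8.85 on Msi1 and 8.27 on hnRNP, each at least 3.07 above its floor. Its signal in the precipitations was similar with each antibody and with IgG alone. Msi1 exceeded IgG by 0.52 and hnRNP by 0.58, both under 2-fold, and both differences turned negative with quantile normalization (−0.22 and −0.18). The hnRNP and IgG values differed by −0.06.

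Meg3 read 4.16 on input, 5.60 on IgG, 5.16 on Msi1 and 5.61 on hnRNP. It was above the floor on all 4 arrays but by at most 0.45, and by 0.07 on input, and it was above no array's 99th percentile of the receptor probe sets. Msi1 differed from IgG by −0.44 and hnRNP by 0.01, so neither antibody differed from IgG past 2-fold. Of the member probe sets above the floor on any array, Meg3 alone had its lowest signal on input.

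Over the 9 probe sets, 5 were above the floor on at least 1 array of the pair Msi1 and IgG. Of these, 3 (Malat1, Gas5 probe set 1 and Rny3) exceeded IgG at least 2-fold in the Msi1 precipitate and 0 fell short of it by as much. Among all 11164 probe sets compared, 19.8% were higher and 7.04% were lower. The median difference was 3.54 over the 5 member probe sets and 0.09 over all. The members were chosen with earlier results of these data known, so these contrasts describe the 5 probe sets and no wider class. These 3 excesses kept their side of 2-fold with the arrays centred on their medians, quantile normalized or loess centred. They lay between 3.37 and 3.96 for Malat1, 5.36 and 5.65 for Gas5 probe set 1, and 2.71 and 3.68 for Rny3. The range of Gas5 probe set 1 uses an IgG value below the floor, and with values raised to the floor its difference was 3.94. Quantile normalization changed the makeup of the calls over all probe sets, of which 61.0% were higher in place of 73.8%.

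**Figure D2:**
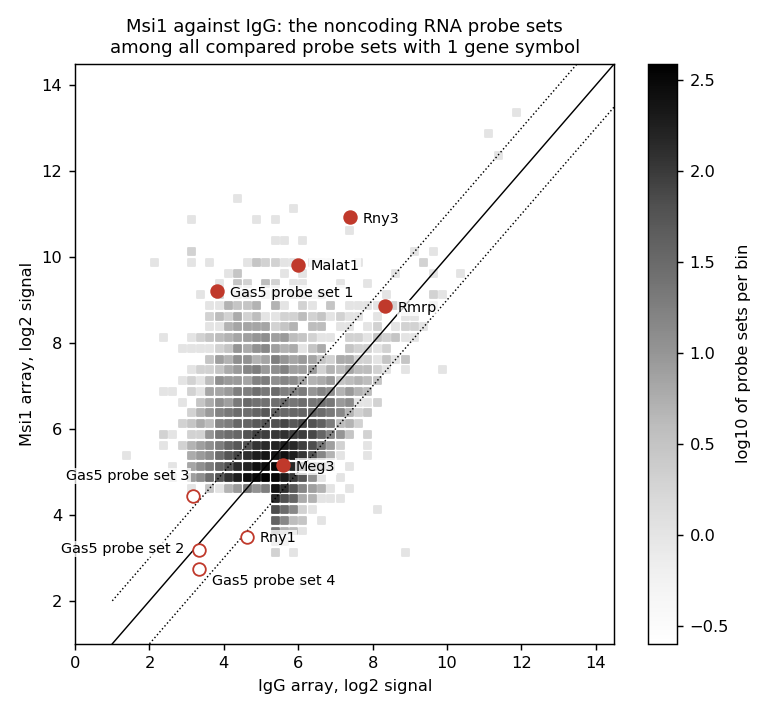
Msi1 signal (y axis, log2) against IgG signal (x axis, log2) for all 11164 probe sets with 1 symbol above the floor on either array, in grey by the number per bin, with the 9 member probe sets as red circles, open where below both floors. The solid line marks equal signals and the dotted lines 2-fold; Rny3, Malat1 and Gas5 probe set 1 lie above the upper dotted line and Rmrp and Meg3 between the lines.

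In hnRNP against IgG, 2 of 5 member probe sets, Malat1 and Gas5 probe set 1, were at least 2-fold higher and 0 were lower, where 6.58% and 4.76% of 8430 probe sets were. Only Malat1 of these had both values above the floor, and with values raised to the floor Gas5 probe set 1 differed by 0.31. In Msi1 against hnRNP, 3 of 5 were higher and 0 lower, where 18.6% and 7.94% of 11504 were, with a member median of 2.21 and an overall median of 0.00. Of all calls there 70.1% were higher as deposited, 58.7% with quantile normalization and 81.1% with loess centring. The comparisons with IgG share the IgG array, and those with Msi1 the Msi1 array, so they are not separate evidence.

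Compared with input, 6 of 7 member probe sets were lower in IgG and in hnRNP, while the members' median in Msi1 was 0.38 above input. In Msi1, 2 of 7 member probe sets were at least 2-fold higher, Gas5 probe set 1 (2.17) and Meg3 (1.00, and 0.75 to 0.83 under the other scalings), and 3 were lower, Gas5 probe sets 2 and 3 and Rmrp (−1.30), where 11.9% and 38.7% of 13834 probe sets were higher and lower. In IgG, 1 of 7, Meg3 (1.44), was higher and the other 6 were lower, where 16.2% and 45.5% of 13733 were. Gas5 probe set 2 is among these 6 by its deposited values, but against the IgG floor it is lower by at least 1.01-fold and against the hnRNP floor by at least 1.08-fold. In hnRNP, Meg3 (1.46) was again the one higher and the same 6 probe sets were lower, where 18.3% and 44.2% of 13944 were. The background receptor probe sets were themselves mostly above input: the middle 95% differed by −0.42 to 1.62 in Msi1, −0.34 to 2.28 in IgG and −0.26 to 2.24 in hnRNP. All 3 differences of Meg3 from input lay inside these ranges. Malat1 was 10.9-fold below input in IgG and 3.56-fold below it in hnRNP, and Rny3 7.71-fold and 8.10-fold.

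These differences from input changed with the scaling of the arrays. The standard deviation of all values was 2.01 on input and 1.17 to 1.38 on the other arrays, and its part in this was not tested. Over all probe sets, 23.5% of the calls in Msi1 against input were higher as deposited, 13.7% with median centring, 39.2% with quantile normalization and 41.0% with loess centring, and the median moved from −0.57 to −0.83, −0.12 and −0.13. In the same order the share went from 26.3% to 17.3%, 38.1% and 43.8% in IgG against input, and from 29.3% to 19.7%, 40.7% and 43.3% in hnRNP against input. With loess centring Rmrp was 2.13 above input in IgG and 1.97 in hnRNP, and with quantile normalization 0.18 and 0.15. With loess centring Rmrp in Msi1 was 0.29 above input, and Rny3 was 0.86 above input in IgG and 0.66 in hnRNP. Malat1 in hnRNP turned to 0.12 above input with quantile normalization and 1.70 with loess centring. Gas5 probe set 1 kept its excess in Msi1 over input under each scaling (1.92 to 3.73), and Malat1 and Rny3 in Msi1 were past 2-fold above input with quantile normalization (1.68 and 1.80) and loess centring (1.97 and 2.14).

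**Figure D3:**
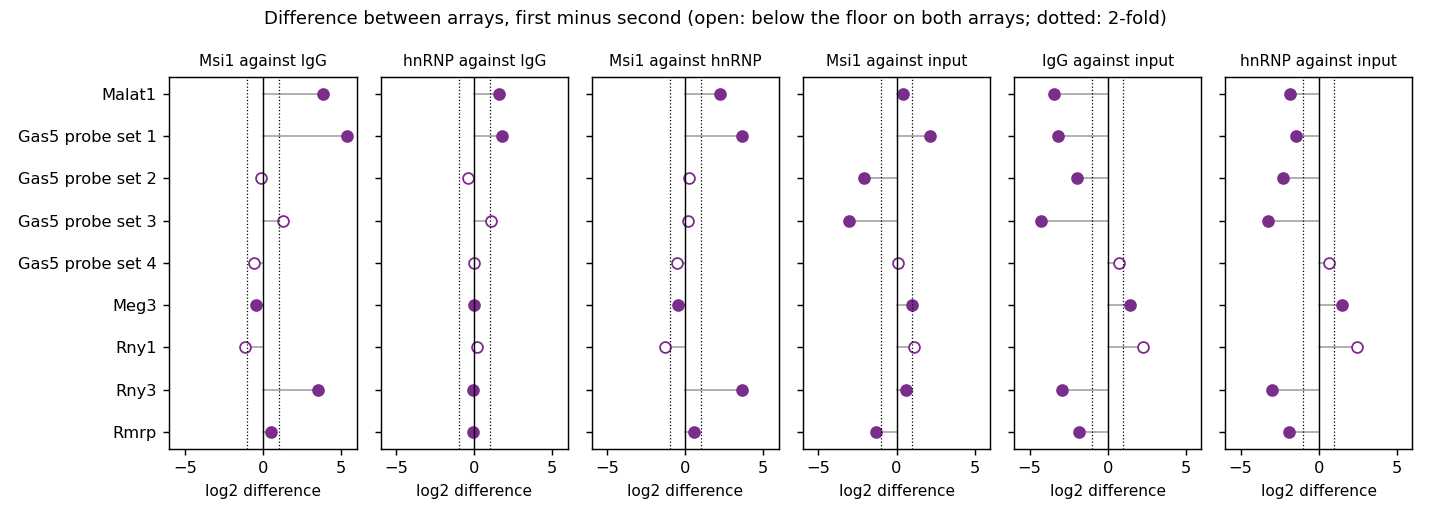
Log2 difference (x axis) of each of the 9 probe sets (y axis) in 6 pairs of arrays, first minus second, filled where above the floor on at least 1 array of the pair; dotted lines mark 2-fold. Malat1, Gas5 probe set 1 and Rny3 lie right of 2-fold in Msi1 against IgG and against hnRNP, and 6 probe sets lie left of it in IgG and in hnRNP against input.

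**Figure D4:**
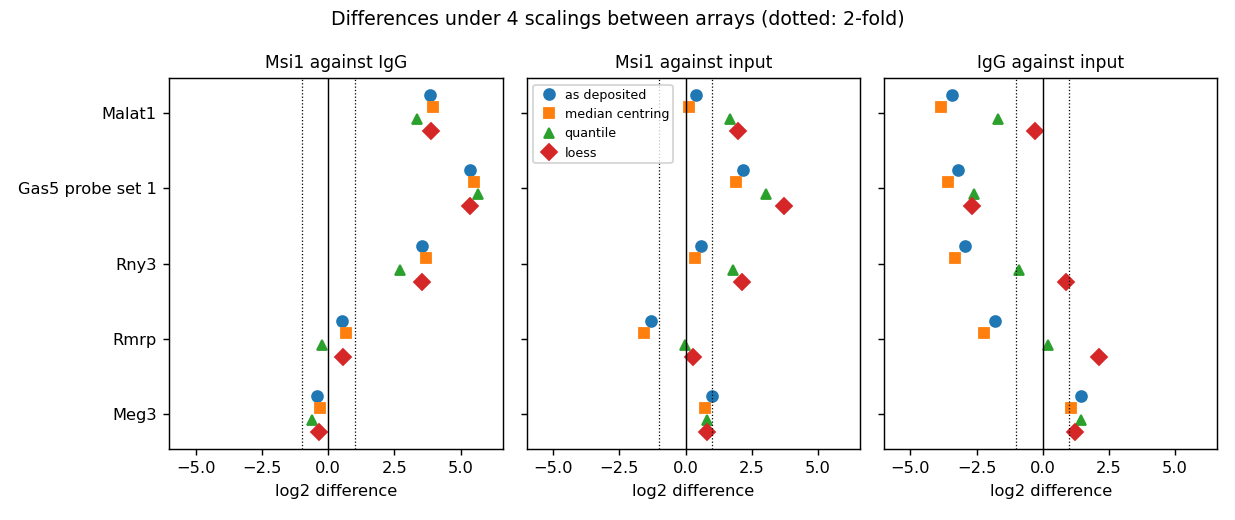
Log2 difference (x axis) of 5 probe sets (y axis) in 3 pairs of arrays, as deposited and after median centring, quantile normalization and loess centring; dotted lines mark 2-fold. The values in Msi1 against IgG stay on their side of 2-fold for all 5, while in IgG against input Rmrp lies between −2.21 and 2.13 and Rny3 turns from −2.95 as deposited to 0.86 with loess centring.

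Genes tied to these RNAs were taken from 8 lists, of which 67 probe sets had 1 symbol. These lists too were chosen with earlier results of these data known. In Msi1 against IgG, 21 of 45 compared were at least 2-fold higher and 5 lower, with a median of 0.90, where 19.8% and 7.04% of all probe sets compared were. Counting probe sets above the floor on both arrays, 7 were higher and 3 lower, where 8.11% and 5.54% of 5057 probe sets were. Fewer than the 45 list probe sets met this rule, so the 7 and 3 are not shares of 45. In hnRNP against IgG, 1 of 30 was higher and 0 were lower, with a median of 0.08, where 6.58% and 4.76% of all probe sets compared were. For partner proteins these values are those of their transcripts.

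Transcripts of the protein partners of Malat1 and Neat1 had higher signals in Msi1 than in IgG. Of 10 probe sets, 9 were past 2-fold above IgG and 0 below, with a median of 2.11. With values raised to the floor 7 were, since most of the IgG values were below the floor. With detection on both arrays 1 was, Srsf2, which alone was above both floors. Against input, 1 of the 10 was higher in Msi1 and 5 were lower, with a median of −0.98. Among all probe sets compared, 11.9% were higher and 38.7% lower, with a median of −0.57. Srsf1, a splicing factor of nuclear speckles, read 7.33 on input, 4.38 on IgG, 8.86 on Msi1 and 4.63 on hnRNP and was at least 12.1-fold above IgG. Srsf2, another speckle factor, exceeded IgG by 3.21. The paraspeckle protein genes Sfpq, Nono and Pspc1, named after their values were seen, exceeded it by 2.64, 1.84 and 1.38, which against the IgG floor is at least 5.83-fold, 1.74-fold and 2.60-fold. The 3 Hnrnpk probe sets exceeded IgG by 1.31, 1.34 and 2.38 (at least 2.06-fold, 1.55-fold and 4.16-fold) and Tardbp did by 0.87. In hnRNP against IgG 3 of the 10 probe sets could be compared, those of Srsf2, Sfpq and Pspc1, and none was past 2-fold.

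Among partners of the Y RNAs, 3 of 7 probe sets were higher in Msi1 than in IgG and 0 lower, with a median of 0.94. With detection on both arrays only Ncl and Puf60 could be counted, and 1 of them, Ncl, was higher. Ssb, which encodes the La protein, read 7.10 on input, 3.81 on IgG, 7.25 on Msi1 and 4.71 on hnRNP and was at least 3.97-fold higher in Msi1. Nucleolin, Ncl, differed by 2.24, the splicing factor gene Puf60 by −0.67 and the one Ptbp1 probe set compared by −0.73. That Ptbp1 probe set was the only one of the 30 past 2-fold in hnRNP against IgG, by 1.22, inside the receptor range of −1.41 to 1.27; it was named after its values were seen. Ro60 was above the floor on input alone, at 4.15.

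RNase MRP and the related RNase P share protein subunits, and 0 of the 7 compared genes of this list were higher and 2 were lower in Msi1 than in IgG, with a median of −0.73. Rpph1, the RNA of RNase P, read 13.34 on input, 11.49 on IgG, 12.39 on Msi1 and 11.69 on hnRNP. Like Rmrp it was bright in every precipitation and differed between Msi1 and IgG by under 2-fold. Its difference, 0.90, lay above the background receptor range of −1.57 to 0.74, inside which the 0.52 of Rmrp lay. Most of these receptor probe sets were dimmer, so their range does not give the spread of probe sets as bright as Rpph1 and Rmrp. The subunit genes Rpp14, Rpp25 and Rpp25l differed by 0.24, −1.09 and −1.16, all inside the range of the background receptor probe sets. The count higher, 0, was 1 with median centring and at 1.5-fold. The count lower was 1 with median centring, loess centring, the 99th percentile floor, detection on both arrays or values raised to the floor. It was 4 at 1.5-fold and 0 at 3-fold.

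The Dlk1 and Dio3 locus, where Meg3 lies, gave 3 compared genes, and the deposited values of all 3 were lower in Msi1 than in IgG past 2-fold, 2 of them with values raised to the floor. Dlk1 differed by −1.15, Begain by −1.22 and Dio3 by −2.04, which is at least 1.58-fold. The differences of Dlk1 and Begain lay inside the range of the background receptor probe sets (−1.57 to 0.74). Meg3 itself differed by −0.44. The noncoding RNA Rian of this locus and the gene Rtl1 were below the floor on all 4 arrays.

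Host genes of small nucleolar RNAs other than Gas5 differed less in Msi1 against IgG than Gas5 probe set 1 did. The other Gas5 probe sets could not be compared there. Of 11 probe sets of these host genes, 4 were higher and 0 lower, with a median of 0.34. Among all probe sets compared, 19.8% were higher and 7.04% lower. Eif4a2, a translation factor gene, differed by 1.27 and Snhg5 by 1.14 (at least 1.49-fold), while the lowest Snhg17 and Snhg11 probe sets differed by −0.25 and −0.37. Of the 6 probe sets of Taf1d, 2 could be compared, and they exceeded IgG by 1.13 (at least 1.85-fold) and 1.00. The Msi1 value of the latter, 5.19, was above its own floor but below the IgG floor, so no fold is given. The list's 4 became 1 with detection on both arrays, 1 with values raised to the floor and 0 at 3-fold.

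Among other long noncoding RNAs, 2 could be compared and both were higher in Msi1. Norad, a cytoplasmic RNA that binds Pumilio proteins, read 7.25 on input, 6.02 on IgG, 8.16 on Msi1 and 6.61 on hnRNP and exceeded IgG by 2.14. Tug1, at 9.73, 4.61, 6.82 and 3.80, exceeded it by 2.21, at least 2.95-fold. Among small RNAs, 3 of 5 probe sets were higher and 0 lower. The 2 probe sets of the 7SK RNA, Rn7sk, which holds back a transcription elongation factor, differed from IgG by 1.45 and 1.86, a gap of 0.41 between readings of 1 RNA. The vault RNA Vaultrc5 differed by 1.55, Rnu12 by 0.90 and the telomerase RNA Terc by −0.29.

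**Figure D5:**
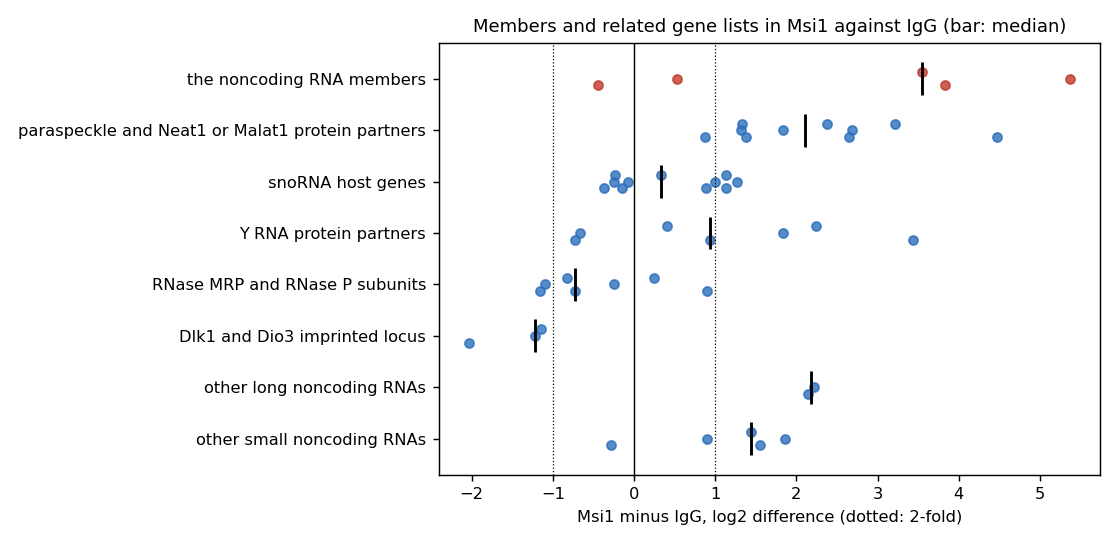
Log2 difference between the Msi1 and IgG arrays (x axis) of each compared probe set of the members (red) and of the related lists (blue), with the median as a bar; dotted lines mark 2-fold. The protein partners of Malat1 and Neat1 have 9 of 10 points right of 2-fold, and the 3 genes of the Dlk1 and Dio3 locus lie left of it.

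The transcripts with the most similar profiles were sought over the 4 arrays, after centring each probe set on its own mean, by the root mean square distance. For Malat1 they were Lysmd3 (0.14 log2 units), Pebp1 (0.15) and Eny2 (0.21), out of 13861 candidate probe sets. All 3 were below the IgG floor, where Malat1 was 0.72 above it. Eny2 was also below the hnRNP floor, where Malat1 was 2.44 above it. For Gas5 probe set 1 they were Capza1 (0.18), Pdcl (0.25) and Lamtor3 (0.35). Like that probe set, all 3 were below the IgG floor. Pdcl and Lamtor3 were also below the hnRNP floor, where Gas5 probe set 1 was 0.41 above it. Capza1, which encodes an actin-capping subunit, read 7.26 on input, 4.40 on IgG, 9.44 on Msi1 and 5.65 on hnRNP. For Rny1, which was below the floor throughout, Mzf1, Trcg1 and Clec2l were nearest (0.01 to 0.03). Its values are background, and no likeness is drawn from them. For Rny3, chosen for this after its values were seen, they were Rock1 (0.06), Leprotl1 (0.12) and Atf2 (0.14). These 3 were below the floor on IgG and on hnRNP, where Rny3 was at least 2.11 above it, so the distances rest partly on background values. With quantile normalization 2 of the 3 neighbours of Gas5 probe set 1, 1 of those of Malat1 and 0 of those of Rny1 and Rny3 were found again.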

How the data were processed

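The deposited log2 values, 1 per probe set and array, were used as the authors gave them. Per the submitters' processing notes the tool was affy; the sources used here give neither its version nor the background correction, normalization or log base, and base 2 was read from the range of the values (1.07 to 14.3). Gene symbols came from the platform annotation: of 34760 probe sets, 21640 had 1 symbol, 1321 several and 11799 none. Of 97 related genes sought, 53 were found.

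A probe set entered a comparison when either array's value exceeded its floor, and was counted at a 2-fold difference. A fold "at least" is the brighter value over the dimmer array's floor, used when the dimmer value lies under it. Related genes named are the 2 highest and 2 lowest of each list in Msi1 against IgG, with those named for comparison with a member chosen after their values were seen. The members and lists were chosen with earlier results of these data known. Similar profiles leave out predicted genes, clones and receptors. The calculation of differences and counts was checked on simulated data. Alternatives were loess centring (span 0.4), median centring, quantile normalization, a 99th percentile floor, no floor, detection on both arrays, values raised to the floor, and 1.5-fold and 3-fold thresholds. Python 3.11.15, pandas 2.3.3, numpy 2.4.6, statsmodels 0.14.6 and matplotlib 3.10.9 were used.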

Additional observations from a re-analysis of the deposited data

Results flagged for a closer look

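A probe set that carries the symbols Malat1 and Ramp2 together was left out of the comparisons, since its signal cannot be given to either gene. Its input signal was above its IgG signal, at 13.68 and 11.03, a log2 difference of 2.65, and neither antibody array exceeded IgG past 2-fold. On Msi1 it read 11.06 and on hnRNP 7.36. Its difference between Msi1 and IgG was 0.03, where the Malat1 probe set differed by 3.83, and hnRNP was 3.67 below IgG (−3.67), where the Malat1 probe set was 1.61 above it. The cause of this disagreement was not tested.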

How the results depend on the processing

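No paired analysis was possible because each group has 1 array, and no replicate could be left out. The member counts in Msi1 against IgG and against hnRNP stayed within 1.5 times, except that 1 was lower in each with no floor; with detection on both arrays 2 of the 3 higher in Msi1 than in IgG were left. In hnRNP against IgG 1 in place of 2 was higher with the 99th percentile floor, with detection on both arrays and with values raised to the floor. In Msi1 against input 1 in place of 2 was higher with median centring, the 99th percentile floor and the 3-fold threshold, and 1 in place of 3 was lower with detection on both arrays. In IgG against input the count higher, 1 as deposited, was 2 with loess centring and with no floor and 0 with the 99th percentile floor and 3-fold; the count lower, 6, was 3 with loess centring and with detection on both arrays. In hnRNP against input the count higher, 1, was 3 with loess centring, 2 with no floor and 0 with the 99th percentile floor and 3-fold; the count lower, 6, was 3 with quantile normalization and 2 with loess centring. With the 99th percentile floor 3 in place of 5 members were above it on hnRNP. For the related lists in Msi1 against IgG, 21 higher became 7 with detection on both arrays and 12 at 3-fold; 5 lower became 3 with the 99th percentile floor, detection on both arrays and values raised to the floor, 9 at 1.5-fold and 1 at 3-fold.

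Among differences past 2-fold, directions turned only in comparisons with input, under the alternatives run. With loess centring the differences were 0.29 for Rmrp in Msi1; 0.86 for Rny3 and 2.13 for Rmrp in IgG; and 1.70 for Malat1, 0.26 for Gas5 probe set 1, 0.66 for Rny3 and 1.97 for Rmrp in hnRNP. With quantile normalization they were 0.18 for Rmrp in IgG, and 0.12 for Malat1 and 0.15 for Rmrp in hnRNP. Rmrp in Msi1 against IgG and hnRNP, not past 2-fold, also changed sign. With quantile normalization, an alternative for the similar profiles chosen after seeing the data, 2 of 3 neighbours of Gas5 probe set 1, 1 of Malat1, 0 of Rny1 and 0 of Rny3 were found again. The causes were not tested. Signal near the floor limits Meg3, Rny1 and Gas5 probe sets 2 to 4.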
